A study of Mus musculus with 65 samples.

Results

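Single cells from the wall of the developing mouse cortex were ordered by a mitotic score, and the cells at the upper and lower ends of that order were compared. The cells were thus chosen by measured values: the score of a cell was the mean deposited value of 10 genes of the division machinery: Mki67, Top2a, Cdk1, Ccnb1, Ccnb2, Cenpf, Tpx2, Nusap1, Ube2c and Birc5. Each of the 3 deposited files holds 1 group of cells, and within each file the number of cells was divided by 3 and rounded down to give the size of a high-score and of a low-score set. This gave 6 and 6 cells at E12, 8 and 8 at E15 and 6 and 6 in the transplanted group, so 20 high-score and 20 low-score cells were compared, 40 of the 65 libraries, with 25 middle cells between them. The 10 scoring genes are left out of all results.

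All cells came from CD1 mice and are labelled as neuronal progenitors, with 1 Patch-seq library for each cell. E12 cells (wild type, embryonic day 12) and E15 cells (wild type, embryonic day 15) had taken up FlashTag, a dye placed in the ventricle that stains cells dividing at its surface. Transplanted cells were of age E15 and had been placed in an E12 environment. The labels give CD1 as the strain of all 3 groups and name no animal, litter or culture, so each group counts as 1 sample. The score was read from the same libraries as every value below. The values are therefore a description of these cells, with no test and no p-value, and the SDs given are spreads over cells.

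Cells that pass from S phase into G2 and mitosis raise a shared programme of transcripts. Cyclins and their kinases start mitosis, motors of the kinesin family and microtubule proteins build the spindle, and kinetochore proteins join the chromosomes to it. Condensins compact the chromosomes, the anaphase-promoting complex triggers their separation, and cytokinesis proteins divide the cell. Apical progenitors of the cortex divide at the ventricular surface, and their nuclei replicate DNA away from that surface and move back to it for mitosis. Many genes of the programme carry short promoter elements, among them the cell cycle genes homology region, bound by the MuvB complexes, and CCAAT boxes, bound by NF-Y.

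The promoters of the 4 G2 and M phase genes, and of the S phase gene, with the highest ratios among those at least 2-fold higher in high-score cells of each file are shown because their elements can be read next to those ratios. The stretches are RefSeq windows of build GRCm38 from 150 bases before to 30 bases after the annotated start, 5′ to 3′ on the strand of the gene. Capitals mark TTTGAA or TTCGAA (the homology region) and CCAAT, on either strand, so that a site on the other strand reads TTCAAA or ATTGG.
Espl1, chr15:102296143-102296322, plus strand: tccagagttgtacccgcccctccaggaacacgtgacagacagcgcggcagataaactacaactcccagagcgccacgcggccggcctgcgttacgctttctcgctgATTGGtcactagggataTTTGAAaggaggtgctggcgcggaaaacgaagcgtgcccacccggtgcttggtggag
Gtse1, chr15:85859557-85859736, plus strand: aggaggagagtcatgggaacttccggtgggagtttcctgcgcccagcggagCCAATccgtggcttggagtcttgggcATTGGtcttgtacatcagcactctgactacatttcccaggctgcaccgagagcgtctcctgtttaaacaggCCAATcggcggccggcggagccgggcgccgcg
Aspm, chr1:139454623-139454802, plus strand: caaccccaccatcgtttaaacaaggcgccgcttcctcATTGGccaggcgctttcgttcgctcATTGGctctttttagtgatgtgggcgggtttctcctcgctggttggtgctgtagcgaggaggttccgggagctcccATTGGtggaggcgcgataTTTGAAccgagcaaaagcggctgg
Plk1, chr7:122159285-122159464, plus strand: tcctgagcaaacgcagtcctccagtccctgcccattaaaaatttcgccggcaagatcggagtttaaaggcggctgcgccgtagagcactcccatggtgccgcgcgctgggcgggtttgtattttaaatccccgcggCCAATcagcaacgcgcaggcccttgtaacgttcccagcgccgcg
Fen1, chr19:10204364-10204543, minus strand: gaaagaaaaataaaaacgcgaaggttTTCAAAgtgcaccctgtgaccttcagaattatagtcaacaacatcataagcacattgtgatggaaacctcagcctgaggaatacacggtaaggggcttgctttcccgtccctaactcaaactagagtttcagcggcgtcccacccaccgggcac

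In Espl1, TTTGAA began 27 bases before the annotated start, with a CCAAT box on the other strand at 44 bases before it. In Aspm it began at base 7 after the start, with CCAAT boxes at 113, 88 and 12 bases before it. In Plk1 it began at base 31 after the start, just past the printed stretch, with CCAAT at 14 bases before the start. Gtse1 held 3 CCAAT boxes and no TTTGAA or TTCGAA in its window. Fen1 held TTTGAA on the other strand at 124 bases before the start and no CCAAT. The start sites of Gtse1 and Fen1 are the less certain ones, since the last 25 bases of their full RefSeq windows lie in no GENCODE vM21 transcript of the gene, while those of Espl1, Aspm and Plk1 do.

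Over full windows (250 bases before to 50 after the start), TTTGAA or TTCGAA was found in 62 of the 98 measured G2 and M phase genes with a window (63.3%). The share was 83.9% (26 of 31) among those at least 2-fold higher in high-score cells of each file and 53.7% (36 of 67) among the other members. It was 16.4% among S phase genes (9 of 55), 13.1% among all genes tested that had a window (997 of 7613) and 19.4% among 27025 RefSeq windows. CCAAT was in 70.4% of G2 and M phase windows, 65.5% of S phase windows and 39.3% of those of all genes tested (37.9% of all RefSeq windows). Among genes higher in each file that were on no G2 and M phase list, 27 of 269 held TTTGAA or TTCGAA and 41.6% held CCAAT. The 6-letter element was thus more frequent in the G2 and M phase list than in the S phase list, while CCAAT was frequent in both.

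The scores spread over a range in each file, and the sets are its ends. At E12 the scores went from -0.640 to 0.484 on the log10 residual scale, with medians of 0.385 in high-score and -0.397 in low-score cells. The last high-score cell lay at 0.226 and the first middle cell at 0.10, and the lower edge fell between -0.282 (middle) and -0.320 (low). At E15 the range was -0.774 to 0.653 and the set medians 0.354 and -0.282. The upper edge lay between 0.280 and 0.274 and the lower one between -0.063 and -0.076, so that neighbouring cells on either side of an E15 edge scored nearly alike. Transplanted cells ranged from -0.519 to 0.470, with set medians of 0.175 and -0.273, an upper edge between 0.090 and 0.089 and a lower edge between -0.120 and -0.162. In CPM (the count of a gene scaled to the reads of its cell), the 10 scoring genes summed to a median of 3624.4 in high-score, 1846.9 in middle and 495.8 in low-score cells. The sums ran from 1877.7 to 5199.8, from 240.2 to 4053.8 and from 30.1 to 2106.5 CPM, in that order. High-score and low-score cells thus overlapped on this scale, within a file only at E15, where the lowest high-score cell was at 1991.5 and the highest low-score cell at 2106.5.

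**Figure D1:**
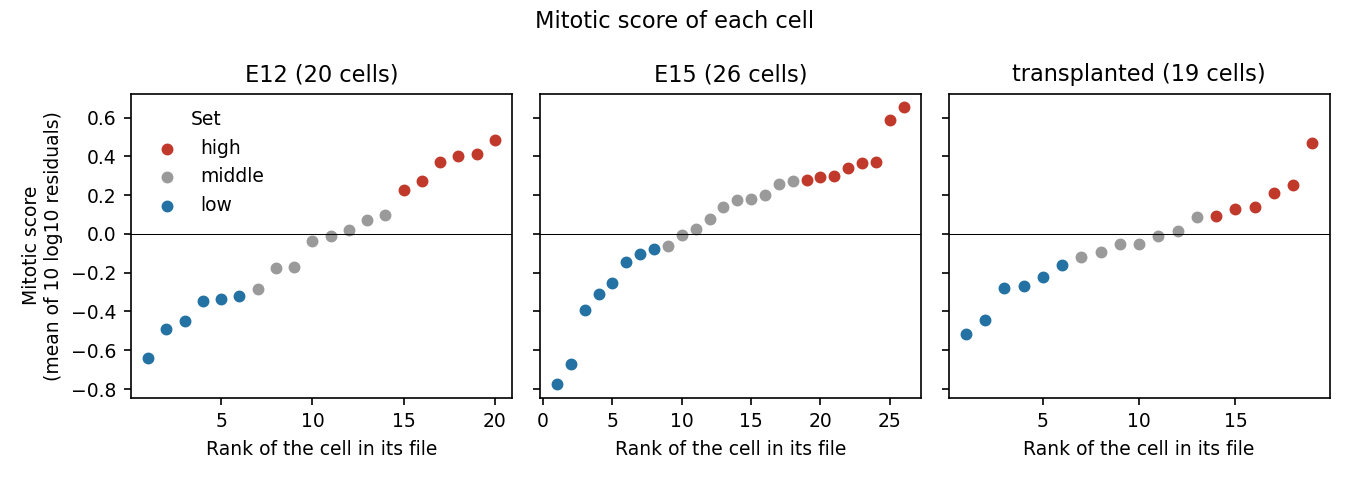
Mitotic score of each cell (mean of 10 deposited log10 residuals, vertical axis) against the rank of the cell in its file, for 20 E12, 26 E15 and 19 transplanted cells. Colours give the high-score, middle and low-score sets. The scores form a slope with almost no gap at the E15 edges and the upper transplanted edge. The steps are -0.120 to -0.162 at the lower transplanted edge and 0.226 to 0.10 and -0.282 to -0.320 at the E12 edges.

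High-score cells held 22358 to 4096356 reads (median 266074.5) and low-score cells 15698 to 2943648 (median 160841.5). Their median numbers of detected genes were 4715.5 and 4091.5, and 4 libraries of each set had above 8000 genes. After each cell was thinned to 20000 reads (1 low-score cell was shallower and left out), the medians were 3783 and 3126 genes, with 2188.5 and 2858 at E12. The titles also carry pools A to H, whose meaning they do not give. All high-score E12 cells were in pools B, E and G and all low-score E12 cells in A, C, D and F, so at E12 score and pool cannot be told apart. Over the 3 files, pools B and G each held 4 high-score and 0 low-score cells, among them E15 and transplanted ones. Score and pool are thus confounded in part in those files too. Cells of both sets shared a pool in 8 cases, 5 at E15 and 3 in the transplanted group.

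Genes of G2 and mitosis that took no part in the score were higher in high-score cells. Of 122 measured members of the 5 lists, 111 had a higher mean CPM in high-score cells over the pooled files (53.2% of all genes did) and 11 a lower one. The median log2 ratio of mean CPM (pseudocount 1 CPM) was 1.44, against 0.08 for all 9925 genes tested, and it was 1.91 at E12, 1.56 at E15 and 1.29 in transplanted cells (all genes 0.00, 0.26 and 0.10). In each of the 3 files, 39 of the 122 were at least 2-fold higher (31.97%), where 4.05% of all genes were, and 0 were at least 2-fold lower in each file, where 1.52% of all genes were. Since these cells were ranked by genes of the same programme, the counts describe the sets and support no statement beyond them. For 12 of the 39 genes no low-score E12 cell held a read, so that their E12 ratio was set by the pseudocount.

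The summed CPM of the lists showed the same order cell by cell. High-score cells summed to 10764.6 to 34646.9 CPM (median 20353.6), middle cells to a median of 15266.3 and low-score cells to 6895.7 to 17088.8 (median 10130.3). All 20 high-score cells lay above the low-score median, and 16 of them above every low-score cell. At E12 the sets did not overlap (16045.2 at the lowest high-score cell, 11784.9 at the highest low-score cell), nor did they among transplanted cells (17325.0 and 14930.4). At E15 they overlapped: the lowest high-score cell, at 10764.6 CPM, was below 3 low-score cells, the highest of which was at 17088.8. Over all cells of a file, the score and this sum had a Spearman correlation of 0.63 at E12 (n = 20), 0.75 at E15 (n = 26) and 0.80 in transplanted cells (n = 19), with Pearson values of 0.69, 0.69 and 0.61, between 2 quantities read from the same library. In the 8 cases of a pool shared within a group, the mean sum was higher in high-score cells in 7. The exception was pool D at E15, with 10764.6 CPM in its 1 high-score cell and 15835.7 in its 1 low-score cell. The median ratio of the single genes was above 0 in 4 of these 8 comparisons of 1 to 3 cells a side. It ran from -3.10 to 4.48, and the median of all genes tested ran from -3.41 to 2.77.

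**Figure D2:**
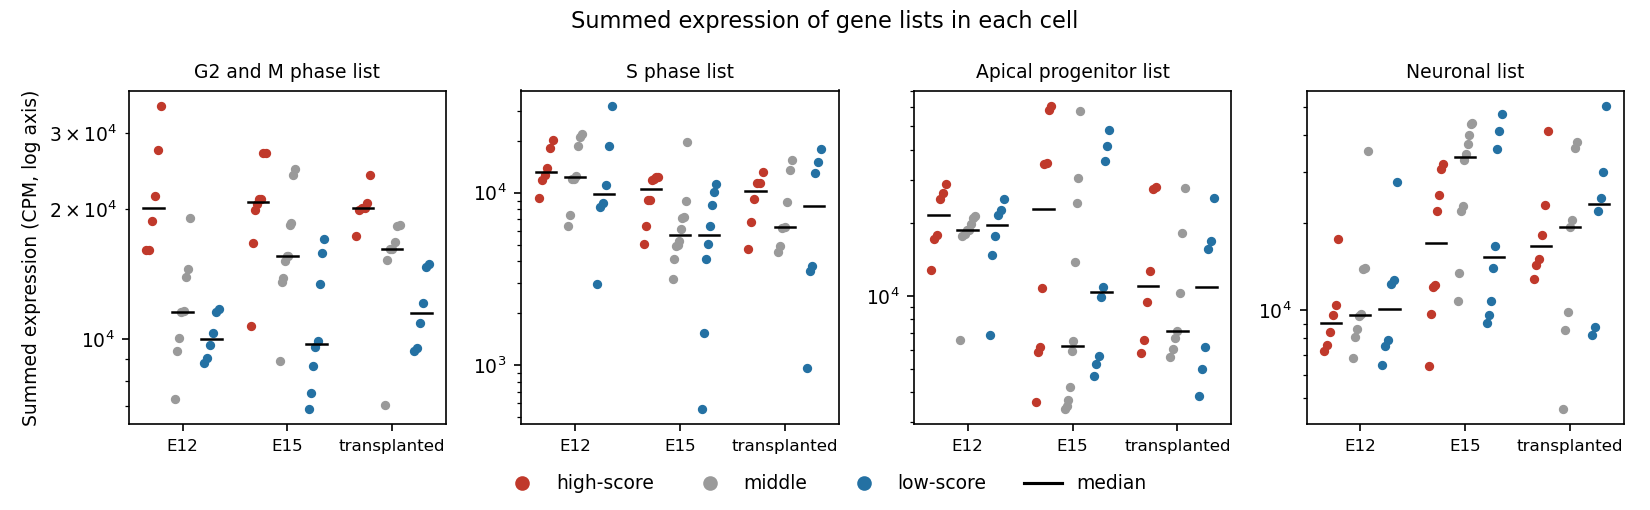
Summed CPM (log axis) of the G2 and M phase, S phase, apical progenitor and neuronal lists in each cell, by group and set; lines are medians. In the G2 and M phase panel the 6 high-score cells lie above the 6 low-score cells at E12 and in the transplanted group, and 1 high-score E15 cell lies at 10764.6 CPM; in the other panels the sets overlap in each group.

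Cyclins and mitotic kinases gave 20 of 21 measured members higher, with a median log2 ratio of 1.99. In each file 11 were at least 2-fold higher (52.38%, against 4.05% of all genes). Plk1, the polo-like kinase that drives mitotic entry and spindle assembly (chromosome 7, 122159439 to 122169873, GRCm38), ran from 0 to 287.6 CPM in high-score E12 cells (median 89.97), from 0 to 167 at E15 (median 77.8) and from 0 to 309.7 in transplanted cells (median 31.27). In low-score cells its medians were 0, 7.89 and 0 CPM and its highest values 9.855, 34.27 and 15.9. It was read in 14 high-score and 7 low-score cells, 12 high-score cells lay above every low-score cell, and the low end of both sets was 0. The pooled means were 89.53 ± 96.16 and 6.512 ± 10.64 CPM (SD, n = 20 cells each), a log2 ratio of 3.59. It was 3.39 to 3.90 when single cells were left out. Plk1, Espl1, Gtse1, Stil and Fen1 were among the genes named for the ratio left after that step, so such ranges are no check on them.

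Pbk, a mitotic kinase abundant in dividing neural progenitors (chromosome 14, 65805837 to 65817822), had medians of 263.3, 317.1 and 303.3 CPM in high-score cells at E12, at E15 and after transplantation. Its low-score medians were 3.655, 45.67 and 58.58 CPM. The sets overlapped in each file, most in the transplanted one, where a low-score cell reached 308.9 and a high-score cell was at 0. Its pooled log2 ratio was 1.99, and that in transplanted cells 1.03. Nek2, which separates the centrosomes, was read in 8 high-score and 2 low-score cells, with means of 18.14 and 0.9128 CPM. Cks1b, a small subunit of cyclin kinases, was at 373.2 ± 232.3 and 263.8 ± 271.4 CPM (log2 0.50), with medians of 391.9 and 65.55 at E15. Ccna2, the cyclin A of S phase and G2, was at 279 and 87.71 CPM (log2 1.66). Foxm1, the transcription factor that activates much of this programme, was at 79.98 and 10.09 CPM, 2-fold higher at E12 and E15 and just under that in transplanted cells (log2 0.91). The kinases Ttk, Aurka, Bub1b and Bub1 had pooled log2 ratios of 2.57, 2.54, 2.48 and 2.42. The phosphatases that activate Cdk1 followed, Cdc25c at 2.45 and Cdc25b at 1.79. Pkmyt1, which inhibits Cdk1, was the member with a lower mean, at 7.556 and 7.68 CPM.

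**Figure D3:**
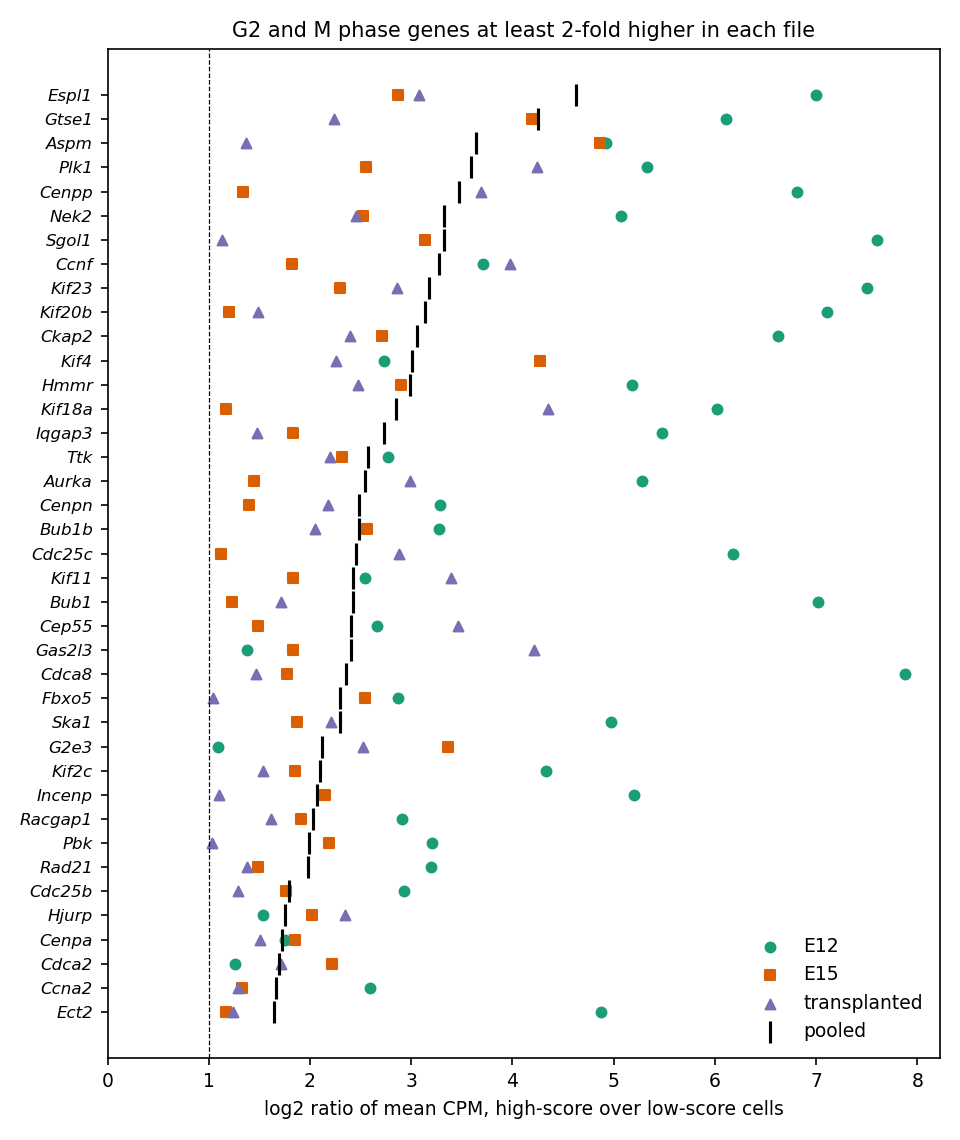
Log2 ratio of mean CPM, high-score over low-score cells, for the 39 G2 and M phase genes at least 2-fold higher in each file; symbols give the 3 files, bars the pooled ratio and the dashed line a log2 ratio of 1. The genes were selected for lying right of that line, and a file whose low-score cells held no read of a gene is placed by the pseudocount of 1 CPM, which was so for 12 genes at E12.

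Genes of the anaphase-promoting complex and its regulators had 11 of 12 members higher and 2 at least 2-fold higher in each file (16.67%, against 4.05% of all genes). Their median over the pooled cells was 0.67, with 0.56 at E12, 0.51 at E15 and 1.14 in transplanted cells. The 2 were regulators. Espl1, the separase that cleaves cohesin at anaphase (chromosome 15, 102296266 to 102324357), was read in 11 high-score and 6 low-score cells. Its high-score medians were 39.99, 15.94 and 7.583 CPM at E12, at E15 and after transplantation, with highest values of 611.1, 78.92 and 178.9. No low-score cell exceeded 12.35 CPM, and all 11 high-score cells with a read lay above that. The pooled means were 73.43 ± 155.6 and 2.002 ± 3.853 CPM, a log2 ratio of 4.63 (3.94 to 4.92 with single cells left out), and 1 cell gave 41.61% of the high-score total. Fbxo5, the inhibitor of the complex known as Emi1, was at 130.6 ± 174.2 and 25.63 ± 49.21 CPM (log2 2.30). Of the core subunits, Anapc5 was at 586.5 ± 519.5 and 416.8 ± 278.7 CPM (log2 0.49) and Anapc13 at 552.6 ± 554.1 and 427.3 ± 427.5 (log2 0.37). The log2 ratio of Anapc13 was 0.83 at E12, -0.49 at E15 and 0.87 in transplanted cells. The activator Cdc20 was at 259.1 and 100.7 CPM, and Pttg1, the securin that holds separase inactive, at 479.8 and 203.7.

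Spindle motors and microtubule proteins had a median of 2.05 over the pooled cells, with 30 of 31 members higher. In each file 12 were at least 2-fold higher (38.71%, against 4.05% of all genes). The median was 2.54 at E12, 1.81 at E15 and 1.54 in transplanted cells. Gtse1, a microtubule-binding protein expressed in S and G2 phase (chromosome 15, 85859745 to 85876573), was read in 10 high-score and 3 low-score cells, at 50.2 ± 109.5 and 1.698 ± 4.911 CPM (log2 4.25). Aspm, a spindle pole protein whose loss causes microcephaly (chromosome 1, 139454772 to 139494091), was at 116.5 ± 228.2 and 8.427 ± 16.82 CPM (log2 3.64). It reached 640.4 CPM at E12 and 868.2 at E15, while low-score cells stayed at or under 61.77, and in transplanted cells it was read in 2 high-score and 3 low-score cells. Kif23, a kinesin of the central spindle, was at 142.6 and 14.8 CPM (log2 3.18) and was read in 15 high-score and 5 low-score cells. Kif11, the motor that pushes the poles apart, was at 92.98 and 16.54 CPM (log2 2.42). Kif14, another cytokinetic kinesin, was read in 7 high-score cells at up to 97.63 CPM and in 0 low-score cells. Arl6ip1, of the membrane network around the spindle, was at 823.6 ± 581.4 and 300.3 ± 313.3 CPM (log2 1.45). Hn1, a microtubule-associated protein of progenitors and young neurons, was equal, at 1020.2 ± 881.3 and 1035.5 ± 601.8 CPM, and was the list's lower member.

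Kinetochore and centromere genes had 28 of 31 members higher, 8 of them at least 2-fold in each file (25.81%, against 4.05% of all genes), and a median of 1.69. Cdca8 or borealin, a subunit of the chromosomal passenger complex (chromosome 4, 124918465 to 124939311), had high-score medians of 527.2, 539.6 and 458.3 CPM at E12, at E15 and after transplantation. The low-score medians were 0, 84.46 and 171.1 CPM. Low-score cells with much Cdca8 were found in the E15 and transplanted files, where the highest were at 312.6 and 369.1, and at E12 the highest was at 11.1. Its pooled log2 ratio was 2.36. Cenpa, the histone that marks centromeres, was at 458.3 ± 448.3 and 138.6 ± 172.3 CPM (log2 1.72), and its sets overlapped in each file. Sgol1, which shields centromeric cohesion, was at 136.3 and 12.79 CPM (log2 3.32). Zwilch, of the checkpoint complex that recruits dynein, was at 146.3 ± 300.1 and 4.542 ± 11.36 CPM (log2 4.73) but was lower in transplanted high-score cells (log2 -0.85). Bub3, of the spindle checkpoint, was at 476.6 ± 397 and 232.5 ± 229.8 CPM. Spc25, a subunit of the Ndc80 complex, was at 386.6 ± 419.9 and 218.5 ± 701.6 CPM, and 1 cell gave 72.59% of its low-score total. Zwint and Dsn1, which help to build the outer kinetochore, had lower means in high-score cells.

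Condensins and cytokinesis genes were less uniform, with 22 of 27 higher, 6 of them at least 2-fold in each file (22.22%, against 4.05% of all genes), and a median of 0.90. Racgap1, the GTPase-activating subunit of centralspindlin (chromosome 15, 99620496 to 99651656), was read in 18 high-score and 11 low-score cells. Its high-score medians were 121.8, 317.3 and 298.6 CPM and its low-score medians 0, 20.27 and 82.97, in the order E12, E15, transplanted. The pooled means were 263.7 ± 204.1 and 63.68 ± 75 CPM (log2 2.03), and 12 high-score cells lay above every low-score cell. Iqgap3, a scaffold at the cell cortex, was at 24.54 and 2.852 CPM (log2 2.73). Rad21, the cohesin subunit cut by separase, was at 204.7 and 51.04 CPM (log2 1.98), and Ect2, the exchange factor that starts furrowing, at 65.13 and 20.25 (log2 1.64). Smc4, a condensin core subunit, was at 580.5 and 228.1 CPM. Tmpo and H2afx, abundant chromatin and lamina genes, were at 673.1 ± 353.6 against 408 ± 320.7 and at 786.4 ± 697.2 against 392.2 ± 328.5 CPM. Of the 5 lower members, Ncapg, a condensin subunit, and Ctcf, the loop anchor protein, were lower in each file, at 16.83 against 69.08 and 280.1 against 669.8 CPM, and Ncapg was read in 8 high-score and 6 low-score cells.

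S phase genes did not follow the score in the same way. Of 71 measured members 49 were higher and 22 lower in high-score cells, 3 were at least 2-fold higher in each file, a share near the 4.05% of all genes, and the median log2 ratio was 0.43, with 1.31 at E15 against 0.31 at E12 and 0.38 in transplanted cells. The summed CPM was 4713.4 to 20272.2 in high-score cells (median 11662.1) and 552.3 to 32042.3 in low-score cells (median 8388.8), so low-score cells spanned the whole range of the high-score ones. The Spearman correlation of score and sum was 0.50 at E15 and 0.04 and 0.01 in E12 and transplanted cells. The median was 1.13 when the counts of a set were added up before scaling, and 1.02 as a mean of ratios within shared pools. It was 0.18 with the upper and lower 50% of cells and 0.20 without E15 cells.

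Fen1, the nuclease that trims Okazaki fragments (chromosome 19, 10199132 to 10204169), departed from its list. At E12 its 6 high-score cells held 9.087 to 431.3 CPM (median 193.4), while 5 of 6 low-score cells held none and the other 7.31, so the sets did not overlap. At E15 the medians were 23.61 and 5.057 CPM and in transplanted cells 31.34 and 3.499, with overlap in both. It was read in 18 high-score and 8 low-score cells, and its pooled means were 101.8 ± 117.9 and 7.995 ± 12.19 CPM (log2 3.51, 3.25 to 3.75 with single cells left out). The other members at least 2-fold higher in each file were Mcm10, a replication initiation factor, at 68.16 and 11.93 CPM, and Fam111a, a protease at the replication fork, at 48.92 and 5.198. Gins3, of the replicative helicase, was at 18.47 ± 31.07 and 0.9948 ± 4.129 CPM. Pcna, the sliding clamp, was at 264.6 and 122.4 CPM, and Tyms, thymidylate synthase, at 508.1 and 203.6. Lig1, the ligase of replication, was at 777.2 ± 694.8 and 472.8 ± 606.1. Other helicase and nucleotide genes were level or lower: Mcm5 was at 322.1 and 328.1 CPM, Mcm6 at 339 and 431.5, and Dut, which removes dUTP, at 530.9 ± 477.7 and 666.8 ± 1099.7. For Mcm6 the order turned between files, with medians of 66.7 CPM in high-score and 597.1 in low-score cells at E12 and of 320.1 and 167.4 at E15.

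Histone genes had 21 of 23 measured members higher, 4 at least 2-fold in each file (17.39%, against 4.05% of all genes), and a median of 0.93. The 4 were rarely read: Hist1h1a, a linker histone, was found in 5 high-score and 2 low-score cells, Hist1h2bj in 8 and 3, Hist1h4h in 7 and 4 and Hist1h1c in 10 and 5. Replicative histone genes are near-identical copies of each other, so their reads may be shared. The abundant replacement histone H3f3b was at 2838.6 ± 1387.3 and 1885.6 ± 1192.8 CPM, and the variant H2afv at 2481.3 ± 1220.1 and 2070 ± 2044.3.

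Genes of G1, E2F and Rb had 17 of 27 members higher and 2 at least 2-fold higher in each file (4.05% of all genes were), with a median of 0.40. The 2 were Rbl1 or p107, a repressor of E2F targets, at 28.05 ± 49.63 and 1.325 ± 3.146 CPM (log2 3.64, read in 11 and 4 cells), and Lin52, a MuvB subunit, at 8.425 ± 19.17 and 0.3602 ± 0.9111 CPM. The G1 kinase Cdk4 was level, at 1197.8 ± 494.4 and 1233.9 ± 642.9 CPM, and Ccnd2, the D cyclin of apical progenitors, was at 2337.3 ± 2284.7 and 1776.1 ± 1549.6. Inhibitors of cyclin kinases and antiproliferative genes had 13 of 23 higher, none at least 2-fold in each file in either direction (4.05% and 1.52% of all genes were), and a median of 0.04. Cdkn1a was at 11.83 and 11.56 CPM and Cdkn1c at 149.8 and 114.1, and Btg2, an antiproliferative gene of progenitors that make neurons, at 32.61 and 89.84. Gadd45a and Ccng1, targets of p53, were at 2.041 ± 5.16 against 28.55 ± 108.5 and at 7.198 ± 13.43 against 55.31 ± 185.3 CPM, and each was read in 5 high-score and 6 low-score cells. A single cell gave 85.39% and 74.86% of their low-score totals, and without it the log2 ratios moved from -3.28 to -0.83 and from -2.78 to -0.93.

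Centriole and centrosome genes had 29 of 35 members higher, 3 at least 2-fold in each file (8.57%, against 4.05% of all genes), and a median of 0.53. Stil, which starts centriole duplication and whose loss causes microcephaly (chromosome 4, 115000159 to 115043196), had high-score medians of 45.37, 24.77 and 1.741 CPM in E12, E15 and transplanted cells and low-score medians of 0, 0 and 1.683. It was read in 12 high-score and 4 low-score cells, at 55.23 ± 106.6 and 2.414 ± 6.383 CPM (log2 4.04, 3.41 to 4.70 with single cells left out), and its highest low-score cell was at 26.2. Akna, which anchors microtubules at the centrosome of delaminating progenitors, had a mean of 60.39 CPM in high-score cells, 86.3% of it from 1 cell at 1042.4, and 3.313 in low-score cells. The centrins were close between the sets, with Cetn3 at 382.6 ± 239.2 and 504.5 ± 532.2 CPM and Cetn2 at 234.4 ± 230.5 and 205.4 ± 235.1.

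In summed CPM per cell, the sets overlapped for the lists of progenitor and neuronal identity. Apical progenitor genes had 27 of 41 members higher, 4 at least 2-fold in each file (9.76%, against 4.05% of all genes), and a median of 0.42. The summed CPM of the sets overlapped in each file, with medians of 21470.4 in high-score and 19600.4 in low-score cells at E12, 22821.4 and 10391.1 at E15, and 11010.3 and 10861.0 in transplanted cells. The median ratio turned to -0.27 when counts of a set were added up, and to -0.50 when the score was taken from log10(CPM + 1), which kept 12 of 20 high-score and 13 of 20 low-score cells. As a mean of ratios within shared pools, which left out all E12 cells, the median was 1.43. That measure gave 1.28 for the G2 and M phase lists and 0.12 for all genes tested. The 4 genes were Notch2, a Notch receptor (8 and 1 cells with a read), Fgfr3, a growth factor receptor (7 and 5), Prom1, the apical membrane protein prominin (16 and 14), and Pard3, of the apical polarity complex (13 and 8). Prom1 was at 165.2 ± 196.4 and 53.89 ± 81.4 CPM, with log2 ratios of 1.65, 1.45 and 1.70 in E12, E15 and transplanted cells. Pax6, the cortical progenitor factor, was at 1166.7 and 456.9 CPM, and 17 of 20 high-score cells lay above the low-score median. Fabp7 and Dbi, lipid carriers of radial glia, were at 3876.2 ± 5277.5 against 3055.9 ± 3849.5 and at 3729.6 ± 4352.4 against 3192.3 ± 3486.4 CPM.

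Intermediate progenitor genes had 7 of 22 higher and 15 lower (median -0.20), with 1 at least 2-fold lower in each file (1.52% of all genes were), Cbfa2t3, a corepressor, at 9.831 and 49.12 CPM. Sox4 and Sox11 were level, at 848.1 ± 745.9 against 827.1 ± 567.2 and at 966.3 ± 824.3 against 1169.1 ± 1216.8 CPM. Of 57 neuronal genes 42 had lower and 15 higher means in high-score cells (median -0.36), 2 of them at least 2-fold lower in each file (1.52% of all genes were). The medians were -0.37 at E12 and -0.51 at E15 but 0.01 in transplanted cells, where 29 of the 57 were higher. The 2 genes lower by 2-fold in each file were Syt4, a synaptotagmin, at 10.67 ± 32.89 and 129.9 ± 377.1 CPM, and Ank3, the ankyrin of the axon initial segment, at 20.03 and 78.94. Syt4 was read in 6 high-score and 8 low-score cells, and 1 cell gave 63.67% of its low-score total. At E12 its log2 ratio of -1.04 rested on 1 cell with reads in each set. Cntn2, an axonal adhesion protein, was at 3.734 ± 9.62 and 144.1 ± 448.3 CPM, read in 5 cells of each set. Tuba1a and Map1b, abundant neuronal cytoskeleton genes, were at 6584.6 ± 4300.7 against 8062.7 ± 6986.3 and at 1129 ± 1003.2 against 1303.6 ± 1125.2. The median of the list turned to 0.04 on the deposited scale and to 0.26 with the cells chosen by a score from log10(CPM + 1), and the summed CPM had medians of 13546.5 and 13332.9. Deep-layer genes had a median of -0.34 (3 of 10 higher) and upper-layer genes one of -0.26 (6 of 14 higher).

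The progenitor label held in part for both sets alike. Sox2, a neural progenitor factor, was read in 20 high-score and 18 low-score cells and Vim, the filament of radial glia, in 20 and 20. In 9 of 20 high-score and 9 of 20 low-score cells the neuronal list nevertheless summed to more CPM than the apical progenitor list. High-score E15 and transplanted cells thus included cells with much neuronal RNA, up to 31888.6 and 41495.0 CPM, next to cells with apical progenitor sums of up to 60856.2 CPM at E15.

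**Figure D4:**
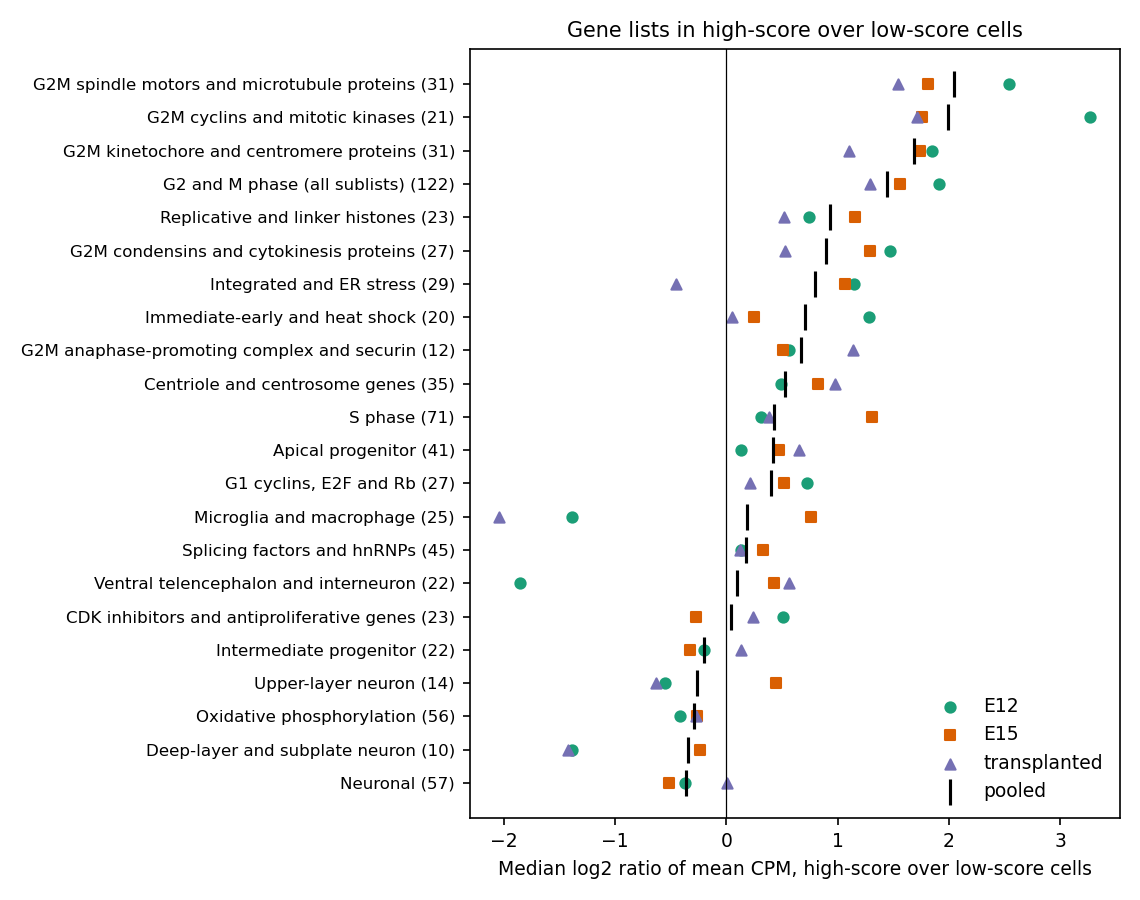
Median log2 ratio of mean CPM, high-score over low-score cells, over the measured genes of each list (number of genes in brackets); symbols give the 3 files and bars the pooled cells. The 3 lists with the highest pooled medians are G2 and M phase lists (2.05, 1.99 and 1.69), S phase lies at 0.43 and neuronal genes at -0.36.

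Markers of other cell types had no common direction over the files. Microglia and macrophage genes had 15 of 25 higher and a median of 0.19, made up of -1.39 at E12, 0.76 at E15 and -2.04 in transplanted cells. Their sum ran from 3.033 to 13290.8 CPM in high-score cells (median 443.2) and from 0 to 9952.3 in low-score cells (median 237.9). Tyrobp, a microglial adaptor, was read in 12 and 13 cells. Ventral telencephalon and interneuron genes had 13 of 22 higher (median 0.10, with -1.85 at E12), and Meis2 was at 373.7 ± 317.4 and 402.8 ± 358.1 CPM. Erythroid genes had 5 of 6 higher, from -1.33 at E15 to 3.05 in transplanted cells, where their sum reached 64980.4 CPM in a high-score cell. The highest erythroid sum of the low-score cells was 57674.4 CPM, at E15. Of 20 endothelial and pericyte genes 1 was measured and none passed the filter, and 3 of 19 choroid plexus and fibroblast genes were measured, among them Ttr at 112.2 ± 222.4 and 69.67 ± 141.6 CPM. The part of these cell types in the ratios above was not tested.

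Stress genes differed by group. Genes of the integrated and endoplasmic reticulum stress responses had 23 of 29 higher and a median of 0.80, with 1.15 at E12 and 1.07 at E15 but -0.45 in transplanted cells. Ddit3 or CHOP, a factor of both responses, was the 1 member at least 2-fold higher in each file (3.45%, against 4.05% of all genes), at 128.8 and 51.99 CPM, and the chaperone Calr was at 651.8 ± 538.4 and 524.4 ± 430.3. Of 20 immediate-early and heat shock genes 16 were higher (median 0.71, with 1.28 at E12, 0.25 at E15 and 0.05 in transplanted cells). Fos, an immediate-early factor, was the 1 member of 20 at least 2-fold higher in each file (5%, against 4.05% of all genes). It was at 391.4 ± 1324.4 and 26.71 ± 96.82 CPM, but its high-score median was 0 and 1 cell reached 5832.1. Oxidative phosphorylation genes leaned the other way, with 46 of 56 lower and a median of -0.29, where 4643 of all 9925 genes were lower. Of the 56, 15 were lower in every file (9.4% of all genes were) and none by 2-fold in each file (1.52% of all genes were). Ndufb4, of complex I, was at 96.64 ± 64.54 and 249.9 ± 460.4 CPM, and Cox6a1, of complex IV, was equal, at 2058.9 ± 1425 and 2143.3 ± 1181.3. Splicing factors were close to level, with 35 of 45 higher at a median of 0.18.

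Among all genes, 402 were at least 2-fold higher in high-score cells of each file and 151 at least 2-fold lower. Of the 402, 39 were on the G2 and M phase lists (9.7%) and 345 on no list, and for 201 of them no low-score E12 cell held a read. Of the 151, 0 were on the G2 and M phase lists and 148 on no list. Within single files 2-fold differences were frequent in both directions: 30.6% of genes higher and 30.7% lower at E12, 28.8% and 17.1% at E15, 29.7% and 24.9% in transplanted cells, and 22.4% and 16.8% over the pooled cells. Sets of 6 to 8 cells therefore differed by 2-fold for a large share of all genes. The genes below are those with the largest ratio left after the cell that raised it most was taken out. Their ranges with single cells left out follow in part from that choice and are no check on it.

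Of the 12 genes named that way as higher, 5 have been described (Espl1, Gtse1, Stil, Plk1 and Fen1). E2f7, an atypical E2F that represses E2F targets from S phase on (chromosome 10, 110745439 to 110787384), had high-score medians of 74.15, 11.26 and 5.61 CPM in E12, E15 and transplanted cells and low-score medians of 0 in each. It was read in 12 high-score and 3 low-score cells, and the highest low-score cell was at 37.06. Its pooled means were 82.15 ± 149.3 and 3.715 ± 9.711 CPM (log2 4.14), but the log2 ratio was 0.79 with the upper and lower 50% of cells and 0.29 with the score from log10(CPM + 1). Pcdh17, a protocadherin (chromosome 14, 84443563 to 84539002), had the largest pooled ratio, log2 5.35 (4.94 to 5.67 with single cells left out), at 140 ± 249.2 and 2.462 ± 5.034 CPM, and turned to -0.93 with the score from log10(CPM + 1). It was read in 7 of 8 high-score E15 cells but in 2 of 6 at E12, and in transplanted cells its medians were 0.1934 in high-score and 0.6361 in low-score cells. The others were Traf2, an adaptor of tumour necrosis factor receptors, Dcp1a, of mRNA decapping, Nbeal1, Xpo4, a nuclear exportin, and Rnf121, a membrane ubiquitin ligase. Their pooled log2 ratios were 4.28, 4.48, 4.94, 4.42 and 3.70, each with means of 37.85 to 138 CPM in high-score cells. A single cell gave 61.09% of the high-score total of Nbeal1. With the score from log10(CPM + 1) Dcp1a turned to -0.85 and Nbeal1 to -0.54, Xpo4 was at 0.65 and Rnf121 at 1.31, and with the 50% sets Traf2 turned to -0.32. Under these settings Plk1 was at 3.10 and 2.30, Espl1 at 5.91 and 3.71, Gtse1 at 5.23 and 2.45, Stil at 4.53 and 2.44 and Fen1 at 1.40 and 1.97, in that order.

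**Figure D5:**
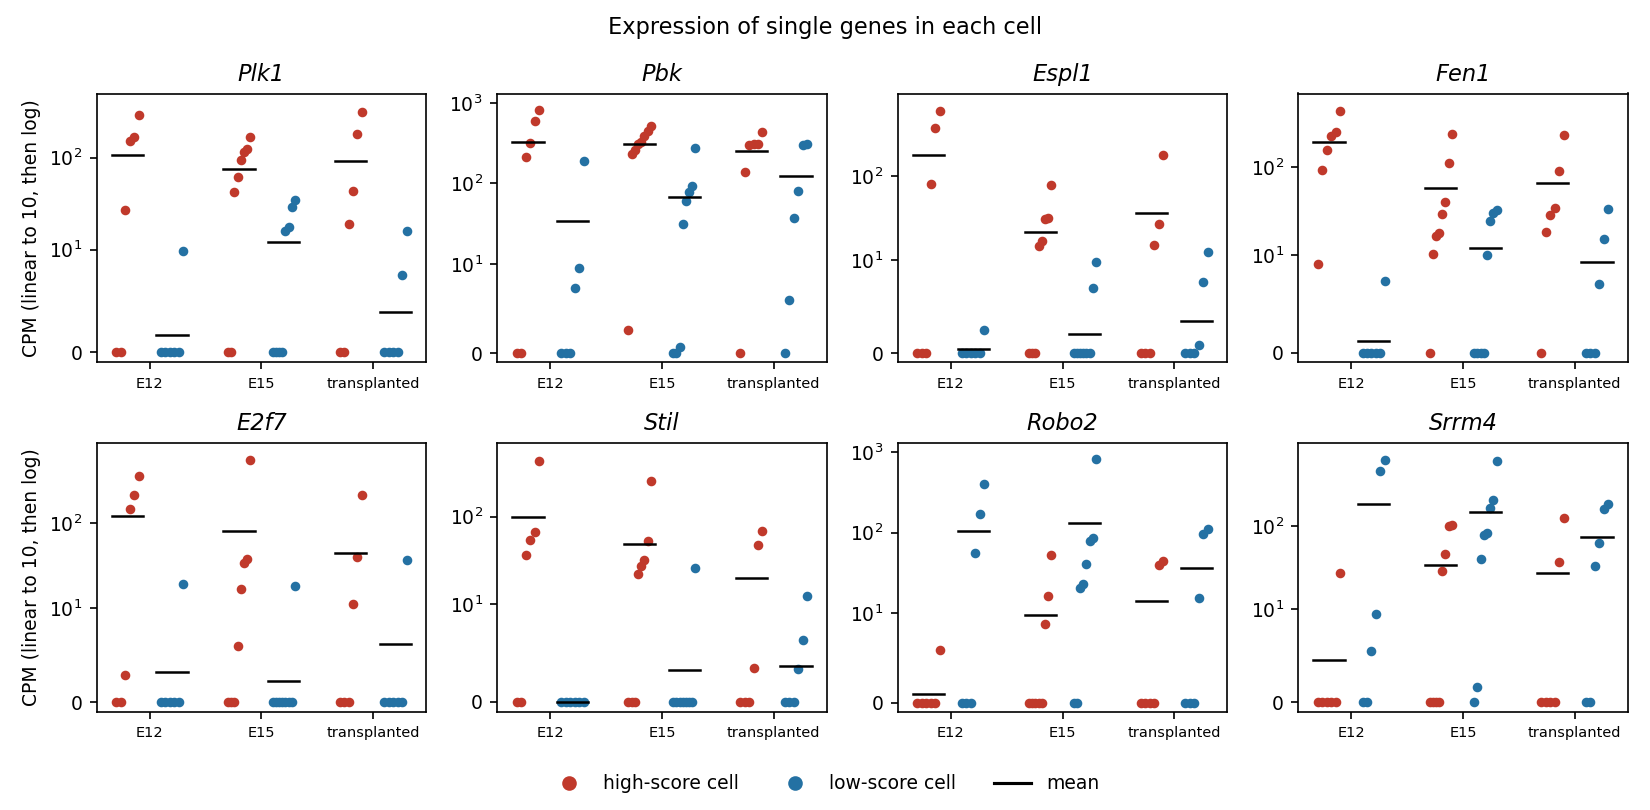
CPM of 8 genes in each high-score and low-score cell (vertical axis linear to 10 CPM, then log), by group, with the mean of each set as a line. Plk1, Pbk, Espl1, Fen1, E2f7 and Stil have higher means in high-score cells of each group and Robo2 and Srrm4 lower ones, and in each panel some cells of the higher set are at or near 0.

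The 12 genes named as lower in high-score cells included Robo2 and Srrm4, which have known roles in neurons. Robo2, the axon guidance receptor for Slit proteins (chromosome 16, 73891839 to 74411825), had high-score medians of 0 in each file and low-score medians of 28.02, 31.79 and 7.634 CPM in E12, E15 and transplanted cells. The highest values were 53.45 CPM among high-score and 820.5 among low-score cells, and 17 of 20 high-score cells lay below the low-score median. The pooled means were 8.467 ± 16.87 and 96.12 ± 195 CPM (log2 -3.36, -3.77 to -2.64 with single cells left out), and the log2 ratio was -1.83 with the score from log10(CPM + 1) and -1.90 with the 50% sets. Srrm4, a splicing factor of neuronal microexons (chromosome 5, 116439275 to 116591817), had medians of 0, 14.32 and 0 CPM in high-score and 7.544, 80.31 and 47.95 in low-score cells. It was read in 7 high-score and 15 low-score cells, at 23.3 ± 39.88 and 135.3 ± 196.6 CPM (log2 -2.49), and its ratio turned to 0.42 with the score from log10(CPM + 1).

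Cstf2t, a 3′ end processing factor, was read in 7 high-score and 16 low-score cells, at 16.17 ± 25.71 and 174.7 ± 394.3 CPM (log2 -3.36). Several others act in mitochondria or in making proteins: Cisd3, an iron-sulphur protein, Ptrh2, a peptidyl-tRNA hydrolase, Mettl8, a tRNA methyltransferase, and Rars2, an arginyl-tRNA synthetase, had log2 ratios of -3.26, -3.24, -3.16 and -2.53. Pgap1, of GPI anchor processing, Nprl2, a regulator of mTORC1, Rac3, a small GTPase, Ipo4, an importin, and Pnck, a calmodulin kinase, had ratios of -3.67, -3.86, -2.48, -2.45 and -2.70. All 12 were read in 10 to 16 low-score and 5 to 9 high-score cells. The naming rule asked for reads in at least 10 low-score cells and for 2-fold lower means in each file, so it set part of this contrast. The 12 genes had medians of 0 in high-score cells over the pooled files. Apart from Srrm4, their ratios stayed below 0 with the score from log10(CPM + 1), from -2.73 for Cisd3 to -0.59 for Ipo4.

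Complete separation of the sets was rare. At E12 every high-score cell lay above every low-score cell for 4 of 9925 genes (0.0403%): Fen1, Trp53bp2, Aplp2 and Proser1. It lay below for 1 (0.0101%), Yme1l1. At E15 the counts were 2 above (0.0202%; Stt3a and Rorb) and 0 below (0%), and in transplanted cells 3 above (0.0302%; Rasa1, Pfdn6 and Tead1) and 3 below (0.0302%; Etfb, Cdk2ap2 and Hspbp1). None of these genes was on a G2 and M phase list, and no member of those lists separated the sets in any file. Cdk2ap2, which binds and restrains a cyclin kinase, was at least 2-fold lower in high-score cells of each file, at 33.58 ± 52.62 and 172.8 ± 264.4 CPM. Apart from Fen1, these genes were named after their values had been seen.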

How the data were processed

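Libraries were made with the SMART-Seq v4 3′ DE kit, per the labels' protocols, and the submitters' processing notes name STAR, HTSeq and mm10 without versions or roles. The deposited values are log10 residuals: log10 of 1 plus scaled counts, centred for each of the 10407 genes over the 65 cells, with 2 further directions over cells removed. This is read from the values, since no header or label states it. Together those directions carried 74.5% of the variance, over cells, in the number of detected genes and 41.3% in log10 reads. Read counts were recovered for all 10407 genes (10034 from the plane of cells at 0, 373 by search), and 100.0% of the 356667 values above 0 came out whole to within 0.01. Each gene had reads in at least 6 cells. PCR reads carry no molecular identifiers.

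CPM used each cell's total. Ratios are log2 of mean CPM over cells with a pseudocount of 1 CPM. Genes needed 5 CPM in either pooled set (9925 tested, 472 left out). A gene was called where the log2 ratio was at least 1 in size, in the same direction, in each of the 3 files. The 24 gene lists, the score and its sets were chosen with earlier results of these data known. Genes were named by rule: in each direction the 12 with the largest ratio left after leaving out the most influential cell, with 20 CPM, reads in 10 of 20 cells of the higher set and no predicted genes, and up to 2 members of each list by level and 2 by ratio. Other list members were added as examples after their values had been seen, and 1 list member is not reported by name here. Promoters were RefSeq windows (7613 of 9925 genes matched). GENCODE vM21 (GRCm38) gave the positions, with a match for 106 of the 107 symbols named. The scripts were tested on simulated data. Alternatives changed the summary, scale, normalization, depth, pseudocount, filter, set size, score and libraries, and a mean of ratios within pools was added after the pools of the E12 sets had been seen. Python 3.11.15, NumPy 2.4.6, pandas 2.3.3, SciPy 1.17.1, Numba 0.67.0 and Matplotlib 3.10.9 were used.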

Additional observations from a re-analysis of the deposited data

Results flagged for a closer look

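In 9 of 63 combinations of measure and set examined, 1 cell stood far from the others of its group and set by Dixon's criterion. The criterion marks about 1 in 20 sets by chance where values are normally distributed. The measures came from the same cells and the list sums were not on a log scale, so that rate cannot be set against 9 of 63. Among neuronal list sums, E12 high-score replicate 7 was at 17664.1 CPM (next 10460.1), transplanted high-score replicate 4 at 41495.0 (next 23068.7), E12 low-score replicate 19 at 27570.5 (next 12712.9) and E12 middle replicate 11 at 35402.6 (next 13988.0). That middle cell also had the lowest apical progenitor sum, 6592.1 CPM (next 17652.4). E15 middle replicate 19 had the highest apical progenitor sum of its set, 57770.9 CPM (next 30570.4), and the highest S phase sum, 19740.7 (next 8955.0). Transplanted middle replicate 8 had a G2 and M phase sum of 7067.7 CPM (next 15266.3). E15 middle replicate 21 was the shallowest of its set, at 4.059 log10 reads (next 5.360). Of these cells, 3 were in the sets compared, and all 3 differed in neuronal genes.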

How the results depend on the processing

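The cause was not tested for any of the following changes unless its construction shows it. Of genes at least 2-fold higher in high-score cells of each file there were 402, and 48 on the deposited scale, 245 with a pseudocount of 5 CPM, 231 with the upper and lower 50% of cells, 933 with a score from log10(CPM + 1) and 614 without pool C. With 1 file fewer to satisfy the count was 997 (without E12), 1018 (without E15) and 1041 (without transplanted cells). Of genes at least 2-fold lower in high-score cells there were 151, and 55 as a difference of mean log2(CPM + 1), 7 on the deposited scale, 85 with a pseudocount of 5 CPM, 82 with the 50% sets, 99 with the log10(CPM + 1) score and 254 without libraries above 8000 genes. It was 476, 780 and 577 without E12, E15 and transplanted cells. Without single cells the counts ran from 359 to 494 and from 134 to 195.

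The G2 and M phase median of 1.44 stayed above 0 in all 26 alternatives. It was 0.91 on the deposited scale, 1.77 with the outer 25% of cells, 0.99 with the 50% sets and 1.40 to 1.66 without single cells. Within pools, where no E12 cells could be compared, it was 1.28, with 0.12 for all genes tested. The S phase median of 0.43 was 1.13 with added counts, 0.99 as a mean log2 difference, 1.02 within pools, 0.18 with the 50% sets, 0.20 without E15 cells or without pool A and 0.34 to 0.59 without single cells. The apical progenitor median of 0.42 turned to -0.27 with added counts and -0.50 with the log10(CPM + 1) score, and was 0.69 as a mean log2 difference, 0.11 on the deposited scale, 0.12 with the 50% sets, 1.43 within pools and 0.21 to 0.47 without single cells. The neuronal median of -0.36 turned to 0.04 on the deposited scale and 0.26 with the log10(CPM + 1) score, and was -0.05 with the 50% sets and -0.45 to -0.20 without single cells. That score shared 12 of 20 high-score and 13 of 20 low-score cells with the deposited one, and its sets had medians of 8136.5 and 3217.5 detected genes.

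Of 37 called named genes 7 reversed in an alternative. With the log10(CPM + 1) score the log2 ratios were -0.93 for Pcdh17, -0.85 for Dcp1a, -0.54 for Nbeal1, 0.42 for Srrm4, -0.26 for Lin52 and -0.25 for Fgfr3. Traf2 was at -0.32 with the 50% sets and gene Fgfr3 at -1.54 with added counts. No paired analysis was possible because replicate numbers only name cells in accession order. The comparison within shared pools matches cells by pool label and not by replicate number.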
